A study of Mus musculus with 9 samples.

Results

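The transcriptome of sorted proximal tubular epithelia from dapagliflozin-treated diabetic mice (*db/db*-dapa) was set against that of non-diabetic *db/m* mice, to ask which transcripts still differed while the drug was being given. The comparison used 6 of the 9 libraries of the series, 3 from *db/db*-dapa and 3 from *db/m* mice, chosen by their labels. Every gene with at least 0.3 CPM (here counts over the library's total, scaled to a common size) in 2 or more of the 9 mice was tested, which was 15583 of the 24421 genes listed. CPM values printed below use library sizes scaled by TMM, a method that allows for differences in composition. The other 3 libraries came from vehicle-treated *db/db* mice, and their values are given beside the comparison where they help to place a gene.

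All mice were labelled as C57BL/6. *db/db* mice are homozygous for a mutation of the leptin receptor gene (Lepr), eat in excess and become obese and hyperglycemic, whereas *db/m* mice carry 1 mutated copy and do not. Every mouse, controls included, also carried a CreERT2 cassette at the SLC34a1 locus (SLC34a1GCE) and the R26tdTomato reporter behind a floxed stop. Each received 3 mg tamoxifen intraperitoneally every other day, 5 times, from 8 weeks of age. *db/db*-dapa mice then drank dapagliflozin at 1.5 mg/kg/day for 8 weeks and *db/db* mice the vehicle. What the *db/m* mice drank is not given in the sources used here. The sorted cells are those that expressed Cre from the Slc34a1 promoter and their descendants, gated as tdTomato-positive and DAPI-negative cells of the kidney cortex, although the labels give the tissue as kidney. Neither sex nor age at collection is stated. Genotype and drug both differ between the treated and the control mice, and so do body weight and food intake in this model, and the comparison cannot tell them apart.

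Proximal tubular epithelia reclaim most of the filtered glucose, amino acids, phosphate and bicarbonate, burn fatty acids for energy, make glucose from lactate and glutamine, and secrete organic anions and drugs. Glucose enters these cells mainly through SGLT2, encoded by Slc5a2, which dapagliflozin inhibits, and further along the tubule through SGLT1, encoded by Slc5a1. The last segment, S3, expresses many genes that respond to androgens in male mice.

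Estimated counts summed to 6571539, 5754864 and 4817670 in *db/m* and to 6981183, 7626047 and 9033062 in *db/db*-dapa mice. Each *db/db*-dapa library was deeper than each *db/m* library, so depth and group cannot be told apart. Libraries deeper than *db/m* replicate 3 were thinned to its total, which left *db/db* replicate 1, at 2733314, shallower. That gave 168 calls, 145 of them among the 164 described below. A count of 3 corresponded to between 0.472 and 0.667 CPM in *db/m* and to between 0.339 and 0.426 CPM in *db/db*-dapa libraries. Slc34a1, whose promoter drives the label, lies on chromosome 13 from 55398187 to 55415592 of GRCm38 and had 3530, 3777 and 4154 CPM in *db/m* and 4554, 4631 and 4464 CPM in *db/db*-dapa mice. Its log2 fold change, here always *db/db*-dapa minus *db/m*, was 0.25 (SE 0.18, adjusted p = 0.462) by edgeR's quasi-likelihood test, adjusted after Benjamini and Hochberg. The Y-linked gene Ddx3y was found in all mice, at 50.9, 56.9 and 39.5 CPM in *db/m* and 70.1, 69.8 and 82.7 CPM in *db/db*-dapa mice, and Xist was at 0.222 CPM or less in these 6 mice. Ddx3y was higher in every *db/db*-dapa than in every *db/m* mouse, but with a log2 fold change of 0.59 (SE 0.18, adjusted p = 0.162) it was not called by edgeR's quasi-likelihood test.

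Under treatment, 164 of the 15583 genes (1.05%) still differed from *db/m* mice by more than 2-fold at an adjusted p under 0.1. Of these, 90 (0.578%) were higher and 74 (0.475%) lower in the treated mice. Genes called higher included Cyp4a14 (fatty acid hydroxylation), Gldc (glycine breakdown), Bhmt (betaine), Kynu (kynurenine) and the vitamin D hydroxylases Cyp27b1 and Cyp24a1. Those called lower included Slc22a7 (an organic anion transporter), the steroid dehydrogenases Hsd11b1 and Hsd17b11, and the androgen-responsive Kap, Odc1 and Cyp4b1. These are named as single genes, and whether any group changed as a whole was not tested. The median log2 fold change was 1.58 for genes called higher and -1.65 for genes called lower, beside -0.02 for all genes tested, and 25 genes in each direction differed more than 4-fold. Without a threshold on the test, 4381 genes (28.1%) had all treated mice on 1 side of all controls, which 2 of the 20 possible arrangements of 6 mice (10%) would give, with the treated mice above for 2239 (14.4%) and below for 2142 (13.7%). All 164 called genes were among these 4381, so a lack of overlap given below for a called gene is no separate support. Further, 2829 genes (18.2%) had an unadjusted p under 0.05.

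The number of calls differed when single mice were left out and with other tools. It was 37, 78 and 54 without *db/m* replicates 1, 2 and 3, and 264, 14 and 41 without *db/db*-dapa replicates 1, 2 and 3. Untreated *db/db* mice are part of the fit: 237, 142 and 664 genes were called without *db/db* replicates 1, 2 and 3, and 630 when only the 6 mice compared were fitted. DESeq2 with its Wald test called 463 genes and limma-voom with a weight for each mouse 1619. In none of these fits did any of the 164 genes change sign. Since the groups did not overlap for any of them, a change of sign was hardly possible, and its absence is no separate support. Of the 164, 13 were called in each of the 9 fits that left out 1 mouse: Acnat1, Angptl7, Cit, Cndp2, Cpe, Cyp2d26, Gm6300, Hsd11b1, Hsd17b11, Nav2, Nt5dc2, Ppic and Slc22a7.

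**Figure D1:**
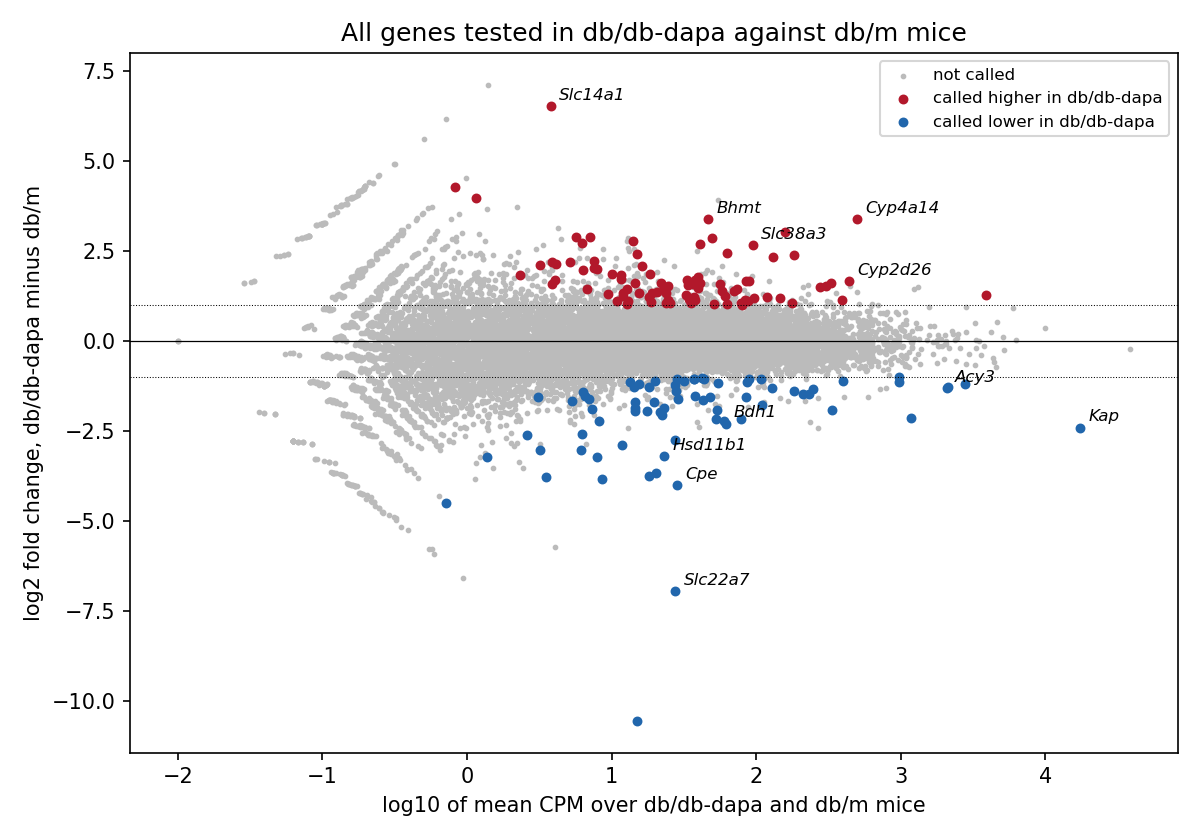
Each point is 1 of the 15583 genes tested, with the log10 of its mean CPM over the 6 mice on the x axis and its log2 fold change, *db/db*-dapa minus *db/m*, on the y axis. The 90 genes called higher are red and the 74 called lower are blue, from Slc14a1 at 6.54 to Slc22a7 at -6.95, with Gm6300, which had no counts in *db/db*-dapa mice, without a label below it.

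Of these 13, Gm6300, Cndp2 and Nt5dc2 are named here after their values were seen. Gm6300 is a predicted gene of chromosome 3 from 14363117 to 14377587. It reached 32.1, 32.3 and 25.8 CPM in *db/m* mice and had 0 counts in all *db/db*-dapa and *db/db* mice. With 3 counts per library as the floor (0.426 CPM), it was at least 70.6-fold lower. Cndp2, a dipeptidase that cleaves cysteinylglycine among other dipeptides, was at 1693, 1610 and 2502 CPM in *db/m* and 486, 417 and 409 CPM in *db/db*-dapa mice, and Nt5dc2 at 29.9, 35.9 and 41.5 CPM in *db/m* and 10.4, 9.72 and 5.66 CPM in *db/db*-dapa mice. Neither overlapped, and their log2 fold changes were -2.15 (SE 0.26, adjusted p = 0.00571) and -2.06 (SE 0.25, adjusted p = 0.00571) by edgeR's quasi-likelihood test.

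The smallest adjusted p belonged to Slc22a7, which encodes the organic anion transporter OAT2. The gene lies on chromosome 17 from 46432183 to 46438457 and had 73.5, 48.3 and 42.9 CPM in *db/m* and 0.284, 0.525 and 0.453 CPM in *db/db*-dapa mice. These are 2, 4 and 4 counts in the treated mice against 467, 277 and 193 in the controls, so the groups were far apart. The log2 fold change was -6.95 (SE 0.34, adjusted p = 3.75e-06) by edgeR's quasi-likelihood test, a fitted 124-fold difference, and stayed between -7.11 and -6.68 whichever mouse was left out. Since *db/db*-dapa replicate 1 was below the floor of 3 counts, the size of this fold is not exact. Untreated *db/db* mice were low too, at 0.34, 0.2 and 0.253 CPM. Slc22a29, of the same family, went the other way, at 7.24, 4.19 and 3.56 CPM in *db/m* and 17, 19.8 and 17.5 CPM in *db/db*-dapa mice, with every treated mouse above every control. Its log2 fold change was 1.84 (SE 0.28, adjusted p = 0.0184) by edgeR's quasi-likelihood test, and the call was lost without *db/db*-dapa replicate 2 (1.65 to 2.22 over the 9 fits). Abcc4, an efflux pump for organic anions and cyclic nucleotides, was also called higher, at 32.3, 49.4 and 26.9 CPM in *db/m* and 75.5, 91.6 and 91.6 CPM in *db/db*-dapa mice. The gene had a log2 fold change of 1.25 (SE 0.25, adjusted p = 0.0621) by edgeR's quasi-likelihood test, with the call lost without *db/m* replicates 1 or 3 or *db/db*-dapa replicates 2 or 3 (1.08 to 1.54 over the 9 fits). Over the 42 organic ion and drug transporters tested, 2 were called higher and 1 lower, and the median log2 fold change was 0.07 (0.04 leaving out *db/m* replicate 2, 0.13 leaving out *db/db*-dapa replicate 2 and -0.01 leaving out *db/db*-dapa replicate 3), close to that of all genes (-0.02).

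Some single genes for enzymes that convert steroids were called lower, among them Akr1c14 and Hsd17b2 (named after their values were seen). No list of such enzymes was fixed, so the share of them that differed was not counted. Hsd11b1, which regenerates active glucocorticoid from its inactive keto form, was at 34.5, 51.3 and 39.8 CPM in *db/m* and 3.27, 4.73 and 5.66 CPM in *db/db*-dapa mice, and Hsd17b11, a hydroxysteroid dehydrogenase of lipid droplets, was at 513, 590 and 494 CPM in *db/m* and 163, 131 and 127 CPM in *db/db*-dapa mice. No treated mouse came near a control for either. The log2 fold change of Hsd11b1 was -3.19 (SE 0.27, adjusted p = 0.000682), and that of Hsd17b11 was -1.92 (SE 0.18, adjusted p = 0.000918), both by edgeR's quasi-likelihood test. Each kept its call whichever mouse was left out.

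Androgen-responsive kidney genes were called in both directions, 3 lower and 1 higher of 16 tested, and their median log2 fold change was -0.44 (-0.69 leaving out *db/db*-dapa replicate 1). Kap, the kidney androgen-regulated protein and the most abundant transcript among those called, was at 35226, 23983 and 29020 CPM in *db/m* and 7230, 3516 and 5905 CPM in *db/db*-dapa mice. The treated mice lay below all controls and above all untreated *db/db* mice, which were at 1469, 2026 and 3146 CPM. Against *db/m* mice the log2 fold change was -2.41 (SE 0.34, adjusted p = 0.0133), and against *db/db* mice it was 1.33 with an adjusted p of 0.854, by edgeR's quasi-likelihood test. Odc1, the rate-limiting enzyme of polyamine synthesis, showed the same order, with 1067, 1299 and 1521 CPM in *db/m* and 717, 675 and 550 CPM in *db/db*-dapa mice and 385, 361 and 413 CPM in *db/db* mice. Cyp4b1, a cytochrome P450, was at 3522, 3764 and 4317 CPM in *db/m* and 1999, 1410 and 1710 CPM in *db/db*-dapa mice, again without overlap. The log2 fold changes were -1.0 (SE 0.19, adjusted p = 0.0512) for Odc1 and -1.18 (SE 0.24, adjusted p = 0.0671) for Cyp4b1 by edgeR's quasi-likelihood test, so Odc1 sat at the fold threshold. Leaving out *db/db*-dapa replicate 2 ended all 3 calls, and the log2 fold changes over the 9 such fits were -2.64 to -2.16 for Kap, -1.12 to -0.88 for Odc1 and -1.30 to -1.06 for Cyp4b1. The call of Cyp4b1 was also lost without any 1 of the *db/m* mice and without *db/db*-dapa replicate 3, and that of Odc1 without *db/m* replicates 2 or 3, replicate 3 of *db/db* or replicate 3 of *db/db*-dapa. Odc1 also lost it with limma on either log scale (log2 of CPM + 1 or of CPM + 0.1), limma-voom with mouse weights, library totals as scaling, no filter, only the 6 mice compared, thinned libraries and the replicate number as a block, and Cyp4b1 with limma on log2(CPM + 1). The sole member called higher, Cyp4a14, is also a target of PPAR-alpha.

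Acy3, an aminoacylase of the S3 segment, was at 3015, 2464 and 3414 CPM in *db/m* and 1340, 1056 and 1220 CPM in *db/db*-dapa mice, and untreated *db/db* mice were at 558, 918 and 899 CPM. On the log2 scale the change was -1.30 (SE 0.23, adjusted p = 0.0397) by edgeR's quasi-likelihood test, with the call lost without *db/m* replicates 1 or 3 or *db/db*-dapa replicates 2 or 3 (-1.42 to -1.19 over the 9 fits). Of the 10 S3 markers, 2 were called lower, Slc22a7 and Acy3, and 0 higher, with a median log2 fold change of -0.53. The 7 markers of S1 and S2 had a median of 0.50, and 0 of them were called in either direction. Summed over the S3 markers, the level was 5003, 4550 and 5135 CPM in *db/m* and 2754, 2571 and 3247 CPM in *db/db*-dapa mice, lower in each treated mouse. Much of this difference was in Acy3. Without it the sum of the other 9 was 1988, 2085 and 1721 CPM in *db/m* and 1415, 1514 and 2028 CPM in *db/db*-dapa mice, and the groups overlapped. Of the 10 log2 fold changes, 3 were above 0. Over the S1 and S2 markers the sum was 6730, 7456 and 7380 CPM in *db/m* and 9040, 9511 and 9155 CPM in *db/db*-dapa mice, higher in each treated mouse (exact two-sided permutation test, p = 0.1 for both sums, the smallest p that 3 against 3 allows). Fewer S3 cells among those sorted and less of these transcripts in each cell cannot be told apart in bulk RNA. For the genes below, higher or lower, the part played by the mix of sorted cells was not tested.

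Cpe, Angptl7, Mep1b and Alox15 were also among the called genes with the lowest log2 fold changes, and are named for that reason. Cpe, carboxypeptidase E, which trims peptide hormones, was at 51, 38.4 and 70.9 CPM in *db/m* and 4.83, 1.97 and 3.17 CPM in *db/db*-dapa mice. Its log2 fold change was -4.01 (SE 0.36, adjusted p = 0.000682) by edgeR's quasi-likelihood test, and -4.35 to -3.74 over the fits that left out 1 mouse, in each of which it was called. Angptl7, an angiopoietin-like protein, was at 13.9, 23.7 and 10.4 CPM in *db/m* and 0.71, 1.58 and 1.02 CPM in *db/db*-dapa mice and had a log2 fold change of -3.84 (SE 0.45, adjusted p = 0.00571), by edgeR's quasi-likelihood test. Every treated mouse was at least 6-fold below every control for both genes. Mep1b, a subunit of the brush border protease meprin, was at 47.6, 19.2 and 46.9 CPM in *db/m* and 1.42, 2.49 and 4.86 CPM in *db/db*-dapa mice. Alox15, a lipoxygenase, was at 54.8, 36.5 and 10 CPM in *db/m* and 2.98, 1.84 and 2.71 CPM in *db/db*-dapa mice, and its *db/m* mice differed more than 5-fold among themselves. The log2 fold changes of the pair were -3.66 (SE 0.66, adjusted p = 0.042) and -3.75 (SE 0.66, adjusted p = 0.0398) by edgeR's quasi-likelihood test.

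Il34, a ligand of the macrophage receptor CSF1R, was at 11.5, 15.5 and 16 CPM in *db/m* and 3.27, 1.18 and 0.226 CPM in *db/db*-dapa mice, while C8a, a chain of the terminal complement complex, was at 5.04, 5.41 and 9.33 CPM in *db/m* and 0.284, 0.525 and 0.566 CPM in *db/db*-dapa mice. The groups did not overlap for either, but the treated values rest on few counts. Log2 fold changes were -3.23 (SE 0.63, adjusted p = 0.0577) for Il34 and -3.76 (SE 0.63, adjusted p = 0.0332) for C8a by edgeR's quasi-likelihood test. Tnnc1, the slow and cardiac form of troponin C, was at 10.6, 8.38 and 14 CPM in *db/m* and 1.56, 0.788 and 1.58 CPM in *db/db*-dapa mice, Wfdc16 at 5.98, 5.93 and 5.11 CPM in *db/m* and 0.852, 0.263 and 0.905 CPM in *db/db*-dapa mice and Ppic, the cyclophilin C gene, at 18.9, 17.1 and 26 CPM in *db/m* and 3.83, 1.58 and 2.94 CPM in *db/db*-dapa mice. Every treated mouse lay below every control for these 3 genes. Their log2 fold changes were -3.04 (SE 0.43, adjusted p = 0.0133), -3.03 (SE 0.50, adjusted p = 0.029) and -2.88 (SE 0.34, adjusted p = 0.00571), in that order, by edgeR's quasi-likelihood test. The calls of Mep1b, Alox15, Il34, C8a, Tnnc1 and Wfdc16 were lost without *db/db*-dapa replicate 2. Il34 was also lost without *db/db*-dapa replicate 3 or any 1 of the *db/m* mice, C8a without *db/db*-dapa replicate 3 or *db/m* replicates 1 or 3, Alox15 without *db/m* replicate 1 or *db/db*-dapa replicate 3, Mep1b without *db/m* replicates 1 or 3, and Wfdc16 without *db/m* replicate 1. Over the 9 fits the log2 fold changes spanned -4.24 to -3.34, -4.18 to -3.21, -4.35 to -2.67, -3.93 to -3.44, -3.20 to -2.78 and -3.31 to -2.66, in the order of the first sentence on these losses. Using limma on log2(CPM + 0.1) also ended the calls of C8a and Mep1b.

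**Figure D2:**
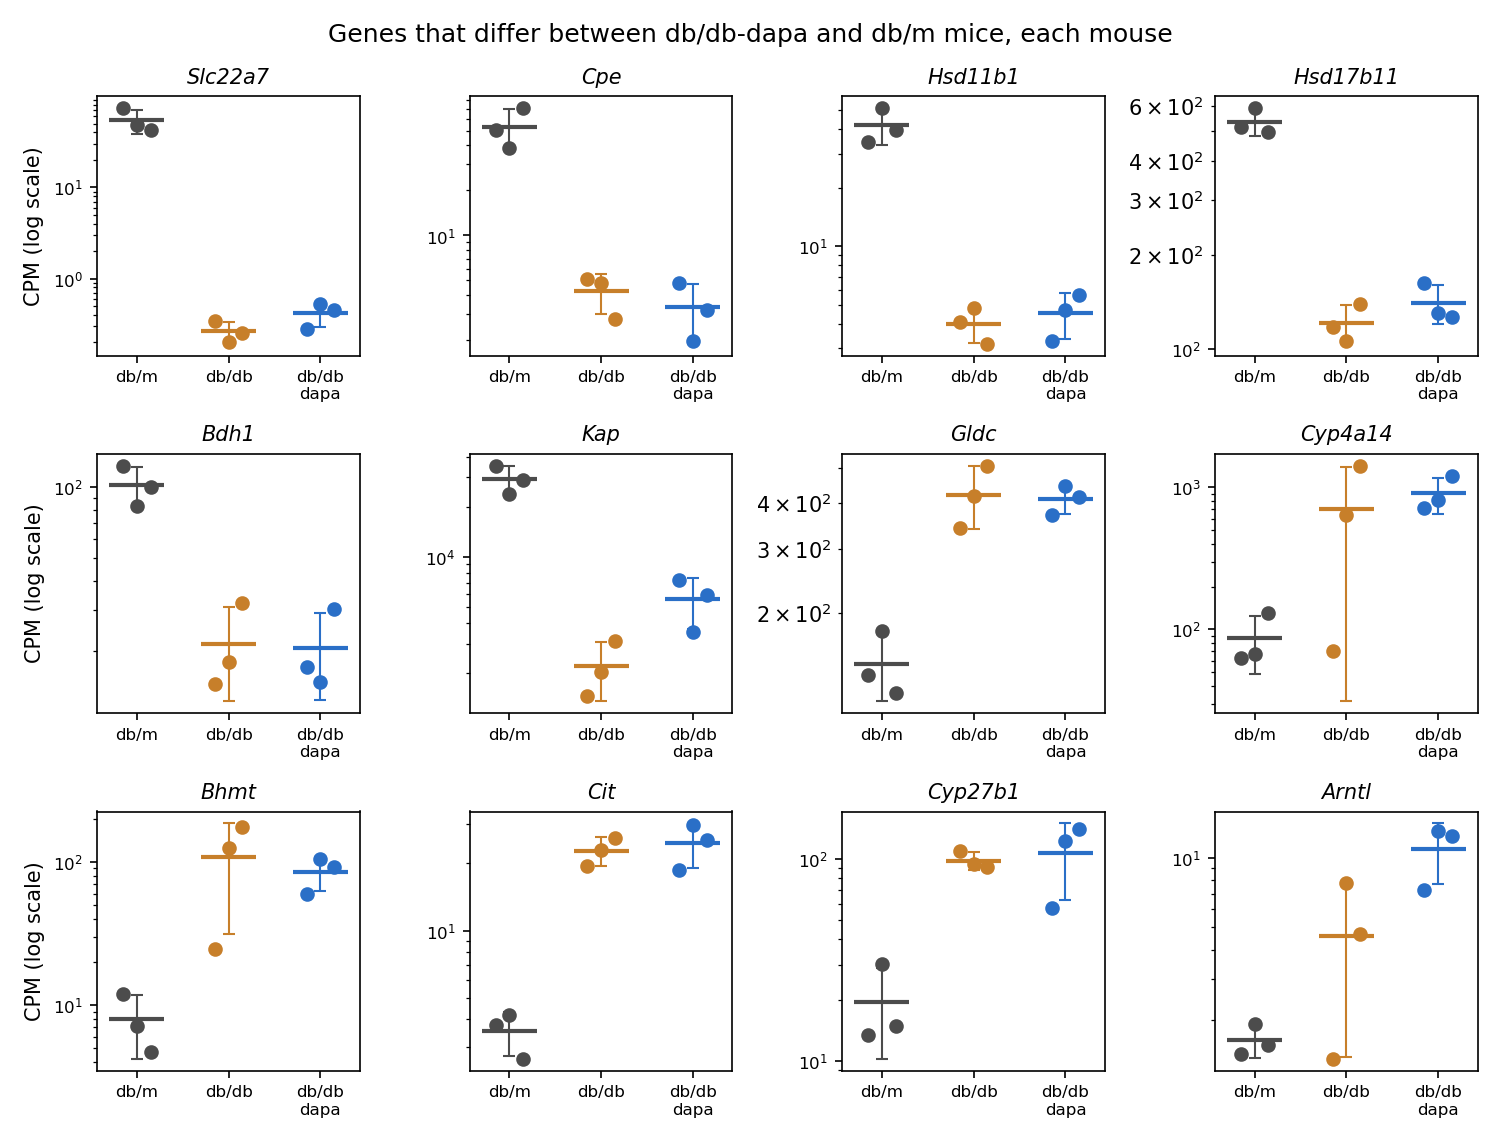
CPM on a log scale of 12 genes in each mouse, with a point for each mouse, a bar for the mean and whiskers for the SD (n = 3 per group). In all 12 panels the *db/db*-dapa mice lie apart from the *db/m* mice, as for Slc22a7 (0.284 to 0.525 against 42.9 to 73.5 CPM) and Gldc (372 to 445 against 121 to 179 CPM).

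Some targets of PPAR-alpha, a receptor for fatty acids, were called higher. Cyp4a14, which hydroxylates fatty acids at their end, was at 63.2, 67 and 131 CPM in *db/m* and 711, 816 and 1198 CPM in *db/db*-dapa mice and at 70, 633 and 1411 CPM in *db/db* mice, so replicate 1 of that group stayed in the range of the controls. Acot3, a peroxisomal acyl-CoA thioesterase, was at 16.5, 13.4 and 23.6 CPM in *db/m* and 40, 59.3 and 84.6 CPM in *db/db*-dapa mice. Each treated mouse was above each control for both. Log2 fold changes were 3.39 (SE 0.77, adjusted p = 0.0922) for Cyp4a14 and 1.79 (SE 0.37, adjusted p = 0.0674) for Acot3 by edgeR's quasi-likelihood test. Both calls were lost without any 1 of the *db/m* mice or *db/db*-dapa replicates 2 or 3, and that of Cyp4a14 also without *db/db* replicate 2. Over the 9 fits the values were 3.15 to 3.80 for Cyp4a14 and 1.5 to 2.03 for Acot3. Cyp4a14 also lost its call with limma on either log scale.

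They were among 3 of 23 PPAR-alpha targets called higher, with 0 called lower and 4 below 0, and the list's median log2 fold change of 0.76 was the highest of the 35 pathway lists. The 11 genes of ketone body metabolism had a median of 0.06 (-0.02 leaving out *db/m* replicate 1, 0.25 leaving out *db/m* replicate 3, 0.11 leaving out *db/db*-dapa replicate 1, 0.19 leaving out *db/db*-dapa replicate 2 and 0.01 leaving out *db/db*-dapa replicate 3). Among them Bdh1, the mitochondrial enzyme that interconverts acetoacetate and beta-hydroxybutyrate, was called lower, at 123, 83.2 and 100 CPM in *db/m* and 17.2, 14.8 and 30.2 CPM in *db/db*-dapa mice, and *db/db* mice were at 14.6, 18 and 32.1 CPM. Its log2 fold change was -2.29 (SE 0.33, adjusted p = 0.0143) by edgeR's quasi-likelihood test, and the call was lost when *db/db*-dapa replicate 2 was left out (-2.66 to -2.10 over the 9 fits). The genes of fatty acid oxidation had 0 of 37 members called and a median of 0.15 (0.24 leaving out *db/m* replicate 2 and 0.25 leaving out *db/db*-dapa replicate 1). The one with the smallest p, Acsl1, which activates long-chain fatty acids, was at 83.3, 137 and 104 CPM in *db/m* and 166, 231 and 291 CPM in *db/db*-dapa mice and had a log2 fold change of 1.09 (SE 0.27, adjusted p = 0.112) by edgeR's quasi-likelihood test. Acnat1, a peroxisomal acyltransferase that conjugates fatty acids, was at 47.4, 43.6 and 32 CPM in *db/m* and 113, 125 and 150 CPM in *db/db*-dapa mice, above every control in every treated mouse, and its log2 fold change of 1.66 (SE 0.20, adjusted p = 0.00571) by edgeR's quasi-likelihood test was called in each fit that left out 1 mouse.

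Lpl, lipoprotein lipase, which frees fatty acids for uptake, was lower, at 393, 318 and 317 CPM in *db/m* and 133, 94 and 147 CPM in *db/db*-dapa mice. Elovl2, which lengthens polyunsaturated fatty acids, was higher, at 17.5, 31.2 and 17.6 CPM in *db/m* and 49.5, 55.3 and 51.6 CPM in *db/db*-dapa mice. Log2 fold changes were -1.46 (SE 0.28, adjusted p = 0.0556) for Lpl and 1.24 (SE 0.27, adjusted p = 0.0861) for Elovl2 by edgeR's quasi-likelihood test. Both calls were lost without *db/m* replicates 1 or 3 or *db/db*-dapa replicates 2 or 3, that of Lpl also without *db/m* replicate 2 and that of Elovl2 without *db/db* replicate 2, with values of -1.58 to -1.28 and 1.09 to 1.57 over the 9 fits. Among 25 genes of lipid uptake and lipid droplets, 1 was called higher and 1, Lpl, lower, and the median was 0.05 (-0.14 leaving out *db/m* replicate 2, 0.10 leaving out *db/m* replicate 3, 0.02 leaving out *db/db*-dapa replicate 1 and -0.03 leaving out *db/db*-dapa replicate 2). Fatty acid and triglyceride synthesis had 1 of 28 genes called higher and a median of 0.08 (0.05 leaving out *db/m* replicate 1, 0.32 leaving out *db/m* replicate 3 and 0.15 leaving out *db/db*-dapa replicate 3). Cholesterol synthesis and uptake had 2 of 28 genes called higher, 0 lower and a median of 0.12 (0.19 leaving out *db/m* replicate 1, 0.24 leaving out *db/db*-dapa replicate 1 and 0.21 leaving out *db/db*-dapa replicate 3).

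Some enzymes that act on amino acids and related amines were called higher, and others, Cdo1 and Ccbl1 among them (named after their values were seen), were called lower. Bhmt, which remethylates homocysteine with betaine, was at 12, 7.15 and 4.67 CPM in *db/m* and 59.6, 104 and 92 CPM in *db/db*-dapa mice. Each treated mouse was at least 4-fold above each control, and the log2 fold change was 3.40 (SE 0.60, adjusted p = 0.0398) by edgeR's quasi-likelihood test. Gldc, the decarboxylase of the glycine cleavage system, was at 136, 179 and 121 CPM in *db/m* and 372, 445 and 416 CPM in *db/db*-dapa mice. Kynu, kynureninase of the tryptophan pathway, was at 14, 5.76 and 13.1 CPM in *db/m* and 40.7, 68.5 and 102 CPM in *db/db*-dapa mice. The groups did not overlap for either gene. Their log2 fold changes were 1.5 (SE 0.21, adjusted p = 0.013) and 2.69 (SE 0.47, adjusted p = 0.0397) by edgeR's quasi-likelihood test. Maob, monoamine oxidase B, was at 1.42, 0.872 and 1.78 CPM in *db/m* and 4.26, 13.9 and 12 CPM in *db/db*-dapa mice, a log2 fold change of 2.89 (SE 0.63, adjusted p = 0.0797) by edgeR's quasi-likelihood test. All 4 calls were lost without *db/db*-dapa replicate 2, and those of Bhmt, Kynu and Maob also without *db/db*-dapa replicate 3 or any 1 of the *db/m* mice, with values over the 9 fits of 3.15 to 3.83 for Bhmt, 1.38 to 1.67 for Gldc, 2.33 to 2.97 for Kynu and 2.59 to 3.26 for Maob. Branched-chain amino acid breakdown had 0 of 27 genes called and a median of 0.03 (0.06 leaving out *db/m* replicate 1, 0.07 leaving out *db/m* replicate 2, 0.05 leaving out *db/m* replicate 3 and 0.11 leaving out *db/db*-dapa replicate 1). Its member with the smallest p, Aldh6a1, had a log2 fold change of 0.81 (SE 0.29, adjusted p = 0.212) by edgeR's quasi-likelihood test and overlapped between the groups. Maob was not called with limma on either log scale.

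Slc38a3 encodes the glutamine transporter SNAT3, which supplies glutamine for ammonia production. It was at 30.4, 17.6 and 29.1 CPM in *db/m* and 123, 160 and 206 CPM in *db/db*-dapa mice, and at 9.86, 60.8 and 93.3 CPM in *db/db* mice, so that the treated mice lay above both other groups. On the log2 scale the change was 2.67 (SE 0.57, adjusted p = 0.0731) against *db/m* by edgeR's quasi-likelihood test, and 1.55 against *db/db* mice, where the adjusted p was 0.854. Slc6a6, the taurine transporter, was at 166, 205 and 122 CPM in *db/m* and 374, 519 and 607 CPM in *db/db*-dapa mice with a log2 fold change of 1.61 (SE 0.38, adjusted p = 0.0998) by edgeR's quasi-likelihood test, just inside the threshold. These 2 were called among 30 amino acid transporters tested, with 0 called lower and a median of 0.49. Removing any 1 of the *db/m* mice, or replicate 2 of *db/db*, or replicates 2 or 3 of *db/db*-dapa, ended both calls (2.45 to 2.84 and 1.43 to 1.80 over the 9 fits). So did limma on either log scale for Slc38a3, and for Slc6a6 the size factors of DESeq2, a filter of 1 CPM in 3 mice, unrounded counts, ties rounded up and the replicate number as a block.

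Both hydroxylases that set the level of active vitamin D were higher. Cyp27b1, which makes calcitriol, was at 13.5, 30.2 and 14.9 CPM in *db/m* and 57.1, 122 and 140 CPM in *db/db*-dapa mice, and Cyp24a1, which inactivates it, was at 71.2, 85.8 and 17.3 CPM in *db/m* and 318, 237 and 369 CPM in *db/db*-dapa mice. Untreated *db/db* mice were at 109, 94.2 and 90.9 CPM for Cyp27b1 and at 646, 337 and 386 CPM for Cyp24a1. Neither gene overlapped between treated mice and controls, although *db/m* replicate 3 was about 4-fold below the other controls for Cyp24a1. Log2 fold changes were 2.44 (SE 0.37, adjusted p = 0.0171) and 2.40 (SE 0.47, adjusted p = 0.0585) by edgeR's quasi-likelihood test. Both calls were lost without *db/m* replicate 1 or *db/db*-dapa replicate 2, that of Cyp27b1 also without *db/m* replicate 3 and that of Cyp24a1 without *db/db*-dapa replicate 3 (2.21 to 2.91 and 1.97 to 2.79 over the 9 fits). With Slc38a3 and Car12, a carbonic anhydrase of the cell surface, they made 4 of 38 genes of sodium, phosphate and acid-base transport called higher, with 0 called lower and a median of 0.27. Car12 was at 266, 278 and 186 CPM in *db/m* and 416, 546 and 651 CPM in *db/db*-dapa mice, a log2 fold change of 1.14 (SE 0.25, adjusted p = 0.0865) by edgeR's quasi-likelihood test, and its call was lost without *db/db*-dapa replicates 2 or 3 or any 1 of the *db/m* mice (0.98 to 1.30 over the 9 fits). With the replicate number as a block, Car12 was not called.

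The largest rise on the log2 scale was that of Slc14a1, a urea transporter, with 0, 0 and 1 counts in *db/m* mice and 5.96, 9.45 and 7.13 CPM in *db/db*-dapa mice. The ratio of the counts per library was 125, with a 95% interval of 22.1 to 4960 (exact binomial, counting error only), and untreated *db/db* mice were at 0, 1.6 and 3.28 CPM. Its fitted log2 fold change was 6.54 (SE 1.05, adjusted p = 0.0261) by edgeR's quasi-likelihood test, with the call lost without *db/m* replicates 1 or 3 or *db/db*-dapa replicate 2 (5.98 to 8.60 over the 9 fits). Cit, the citron kinase gene, had the smallest adjusted p among genes called higher. It was at 3.78, 4.19 and 2.67 CPM in *db/m* and 18.7, 29.8 and 25.3 CPM in *db/db*-dapa mice and at 19.4, 23 and 26 CPM in *db/db* mice, so the controls stood apart from both other groups. Its log2 fold change was 2.78 (SE 0.26, adjusted p = 0.000918) by edgeR's quasi-likelihood test, and 2.62 to 2.94 over the fits that left out 1 mouse, in each of which it was called.

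Nav2, a cytoskeletal protein, was at 16.7, 19.7 and 14.4 CPM in *db/m* and 40.2, 52.1 and 58.7 CPM in *db/db*-dapa mice, and Cyp2d26, a cytochrome P450, at 198, 179 and 257 CPM in *db/m* and 784, 682 and 542 CPM in *db/db*-dapa mice. Both were called whichever mouse was left out, with log2 fold changes of 1.57 (SE 0.20, adjusted p = 0.00829) and 1.66 (SE 0.21, adjusted p = 0.0072) by edgeR's quasi-likelihood test. Aim1l (now Crybg2) was at 2.05, 1.74 and 1.11 CPM in *db/m* and 12.8, 12.6 and 12.1 CPM in *db/db*-dapa mice and Fam107a, an actin-binding protein, at 9.45, 8.03 and 19.1 CPM in *db/m* and 32.5, 135 and 93.1 CPM in *db/db*-dapa mice. Neither overlapped, and *db/db* replicate 1 was within the range of the controls for Aim1l at 2.04 CPM. Their log2 fold changes were 2.89 (SE 0.59, adjusted p = 0.0627) and 2.85 (SE 0.64, adjusted p = 0.09) by edgeR's quasi-likelihood test, lost without any 1 of the *db/m* mice or *db/db*-dapa replicates 2 or 3, and for Fam107a also without *db/db* replicate 2 (2.7 to 3.09 and 2.39 to 3.31 over the 9 fits). Using limma on log2(CPM + 1), Fam107a was not called.

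For the target of the drug, Slc5a2, the treated and control mice overlapped, at 741, 942 and 1058 CPM in *db/m* and 1310, 1250 and 817 CPM in *db/db*-dapa mice, and the log2 fold change was 0.30 (SE 0.34, adjusted p = 0.638) by edgeR's quasi-likelihood test. Slc5a1 was at 77.6, 67.5 and 69.3 CPM in *db/m* and 133, 131 and 147 CPM in *db/db*-dapa mice, higher in each treated mouse, but was not called, with a log2 fold change of 0.94 (SE 0.44, adjusted p = 0.283) by edgeR's quasi-likelihood test. Its untreated *db/db* values of 28.9, 77.4 and 171 CPM spread over both other groups. Of 16 glucose transporters, 0 were called, the median log2 fold change was 0.30 (0.11 leaving out *db/m* replicate 1 and 0.49 leaving out *db/m* replicate 2), and the smallest p was that of Slc5a9, a mannose and glucose transporter, at 19.2, 29.7 and 21.8 CPM in *db/m* and 44.3, 52.1 and 54.9 CPM in *db/db*-dapa mice (log2 fold change 1.10, SE 0.29, adjusted p = 0.121 by edgeR's quasi-likelihood test).

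Gluconeogenesis had 0 of 12 genes called and a median of 0.08 (0.13 leaving out *db/m* replicate 1, 0.20 leaving out *db/m* replicate 2, 0.00 leaving out *db/m* replicate 3, 0.13 leaving out *db/db*-dapa replicate 1 and 0.05 leaving out *db/db*-dapa replicate 2). Its rate-limiting enzyme, Pck1, was at 5104, 3938 and 3456 CPM in *db/m* and 5402, 9924 and 8245 CPM in *db/db*-dapa mice, and G6pc, which releases glucose, was at 365, 272 and 371 CPM in *db/m* and 502, 697 and 861 CPM in *db/db*-dapa mice. Both were higher in each treated mouse than in each control. Neither passed the test, with log2 fold changes of 0.92 (SE 0.33, adjusted p = 0.212) and 1.03 (SE 0.27, adjusted p = 0.122) by edgeR's quasi-likelihood test. In glycolysis 1 of 26 genes was called higher and the median was -0.24 (-0.09 leaving out *db/m* replicate 3). That gene was Pklr, the pyruvate kinase of liver and proximal tubule, at 27.7, 43.1 and 24.7 CPM in *db/m* and 67.9, 96.4 and 86.4 CPM in *db/db*-dapa mice, with a log2 fold change of 1.39 (SE 0.26, adjusted p = 0.0512) by edgeR's quasi-likelihood test and the call lost without *db/m* replicates 1 or 3 or *db/db*-dapa replicates 2 or 3 (1.24 to 1.67 over the 9 fits). The citric acid cycle list had 0 of 31 genes called and a median of 0.16 (0.25 leaving out *db/m* replicate 2). Pdk1, a kinase that inhibits pyruvate dehydrogenase, passed the adjusted p but not the fold threshold, at 17.2, 16.2 and 24.7 CPM in *db/m* and 32.4, 38.7 and 36 CPM in *db/db*-dapa mice (log2 fold change 0.89, SE 0.20, adjusted p = 0.0908 by edgeR's quasi-likelihood test). Polyol and fructose genes had 1 called higher (Slc6a6) and 1 lower of 12, with a median of -0.03 (-0.07 leaving out *db/m* replicate 1, -0.07 leaving out *db/m* replicate 2, 0.09 leaving out *db/m* replicate 3 and 0.00 leaving out *db/db*-dapa replicate 2). The lower one, the aldose reductase gene Akr1b3, was at 51.3, 37.7 and 62.7 CPM in *db/m* and 28.4, 20 and 24 CPM in *db/db*-dapa mice (log2 fold change -1.07, SE 0.22, adjusted p = 0.0627 by edgeR's quasi-likelihood test), but its values are identical to those of Gm6644, and how reads were divided between these copies is uncertain. Its call was lost without *db/m* replicates 1 or 3 or *db/db*-dapa replicates 2 or 3 (-1.24 to -0.89 over the 9 fits).

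**Figure D3:**
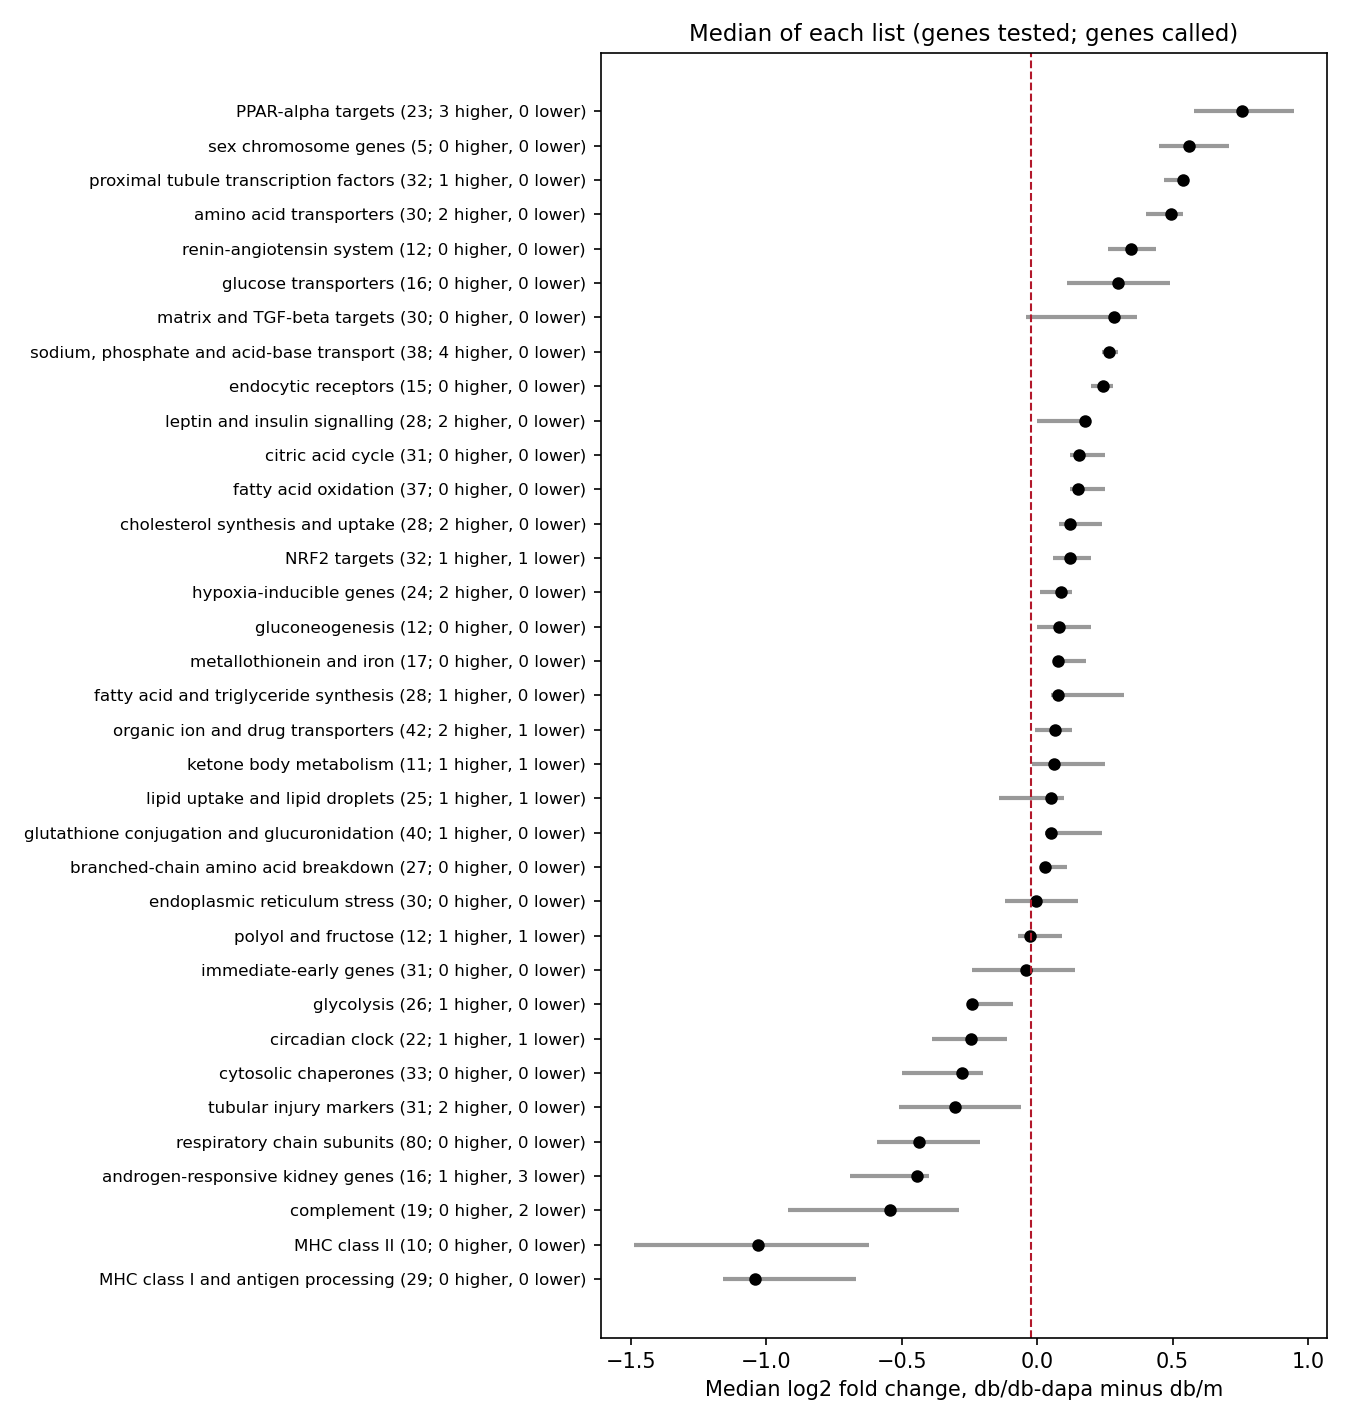
Median log2 fold change, *db/db*-dapa minus *db/m*, of 35 pathway lists (points), with the range over the 9 fits that left out 1 mouse (grey lines) and the median of all genes, -0.02 (dashed line). Labels give the genes tested and called, and the medians run from -1.04 for MHC class I and antigen processing to 0.76 for PPAR-alpha targets.

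Clock genes moved in opposite directions. Arntl (BMAL1), an activator of the clock, was at 1.42, 1.92 and 1.56 CPM in *db/m* and 7.24, 13 and 12.4 CPM in *db/db*-dapa mice, and Dbp, one of the outputs it drives, was at 200, 139 and 169 CPM in *db/m* and 71.8, 40.2 and 36.7 CPM in *db/db*-dapa mice. In both genes the treated mice lay farther from the controls than the untreated mice did on average, with *db/db* at 1.36, 7.8 and 4.67 CPM for Arntl and 107, 84.8 and 79.8 CPM for Dbp. Log2 fold changes were 2.73 (SE 0.51, adjusted p = 0.0511) for Arntl and -1.77 (SE 0.27, adjusted p = 0.0171) for Dbp by edgeR's quasi-likelihood test. The call of Dbp was lost without *db/db*-dapa replicate 2, and that of Arntl without *db/db*-dapa replicates 2 or 3 or any 1 of the *db/m* mice (-2.13 to -1.58 and 2.58 to 2.95 over the 9 fits). They were the 2 called of 22 clock genes, whose median was -0.24 (-0.11 leaving out *db/m* replicate 1 and -0.39 leaving out *db/m* replicate 3). The hour at which the mice were killed is not given in the sources used here, and its part in these values was not tested.

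Of 24 hypoxia-inducible genes 2 were called higher and 0 lower, and the median was 0.09 (0.01 leaving out *db/m* replicate 3). They were Egln3, a prolyl hydroxylase that marks HIF for degradation, at 11.5, 5.41 and 6.44 CPM in *db/m* and 24.6, 36.4 and 25.5 CPM in *db/db*-dapa mice, and Ndrg1, at 1903, 3242 and 1641 CPM in *db/m* and 4280, 6308 and 5957 CPM in *db/db*-dapa mice. The treated mice were above the controls in each case. Log2 fold changes were 1.87 (SE 0.33, adjusted p = 0.0414) and 1.29 (SE 0.28, adjusted p = 0.0763) by edgeR's quasi-likelihood test, both lost without *db/m* replicate 3 or *db/db*-dapa replicates 2 or 3, Egln3 also without *db/m* replicate 2, and Ndrg1 without *db/m* replicate 1 (1.66 to 2.28 and 1.10 to 1.64 over the 9 fits). Leptin and insulin signalling also had 2 of 28 genes called higher and 0 lower, with a median of 0.18 (0.06 leaving out *db/m* replicate 1, 0.00 leaving out *db/m* replicate 2, 0.01 leaving out *db/db*-dapa replicate 1 and 0.11 leaving out *db/db*-dapa replicate 3). Igfbp1, an insulin-like growth factor binding protein repressed by insulin, was at 4.88, 6.8 and 2.22 CPM in *db/m* and 26, 19.8 and 30.3 CPM in *db/db*-dapa mice, and Sgk1, a kinase that acts on sodium transport, was at 161, 94.2 and 92.7 CPM in *db/m* and 274, 179 and 267 CPM in *db/db*-dapa mice. Their log2 fold changes were 2.42 (SE 0.42, adjusted p = 0.0397) and 1.05 (SE 0.25, adjusted p = 0.0988) by edgeR's quasi-likelihood test. The call of Igfbp1 was lost without *db/m* replicates 1 or 3 or *db/db*-dapa replicates 2 or 3, and that of Sgk1 without *db/m* replicates 2 or 3, replicate 2 of *db/db* or any 1 of the *db/db*-dapa mice (2.12 to 2.79 and 0.91 to 1.36 over the 9 fits). Sgk1 was also not called with limma-voom and mouse weights, the size factors of DESeq2, upper quartile scaling or ties rounded up, nor Ndrg1 with limma on either log scale. Lepr itself was at 0.667 CPM or less in all 9 mice, with 4 counts or fewer in each of the 6 compared, too few for a fold change.

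Nr1i2, the xenobiotic receptor PXR, was the 1 of 32 proximal tubule transcription factors called, at 4.57, 7.33 and 8.44 CPM in *db/m* and 15.2, 20 and 16 CPM in *db/db*-dapa mice, and the list's median was 0.54. Ugt1a7c, a glucuronosyltransferase, was the 1 of 40 genes of glutathione conjugation and glucuronidation called, at 144, 195 and 128 CPM in *db/m* and 322, 479 and 551 CPM in *db/db*-dapa mice, with a median of 0.05 (0.24 leaving out *db/m* replicate 3, 0.12 leaving out *db/db*-dapa replicate 1 and 0.03 leaving out *db/db*-dapa replicate 3) for the list. Both were higher in each treated mouse, with log2 fold changes of 1.34 (SE 0.26, adjusted p = 0.0549) and 1.53 (SE 0.35, adjusted p = 0.0922) by edgeR's quasi-likelihood test. Their calls were lost without *db/m* replicates 1 or 2 or *db/db*-dapa replicates 2 or 3, and that of Ugt1a7c also without *db/m* replicate 3 or *db/db* replicate 2 (1.11 to 1.52 and 1.37 to 1.73 over the 9 fits). Ugt1a7c shares exons with the other Ugt1a genes, so its count is uncertain. Among 32 NRF2 targets Abcc4 was called higher and Akr1b3 lower, and the median was 0.12 (0.06 leaving out *db/m* replicate 1, 0.07 leaving out *db/m* replicate 2, 0.20 leaving out *db/m* replicate 3 and 0.19 leaving out *db/db*-dapa replicate 1).

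Among the 35 pathway lists, those of MHC genes had the lowest medians. For MHC class I and antigen processing, 27 of 29 genes had a log2 fold change below 0. The median was -1.04 (-0.67 leaving out *db/m* replicate 1), beside -0.02 for all genes tested, but 0 genes were called in either direction by edgeR's quasi-likelihood test. Its member with the smallest p, the immunoproteasome subunit Psmb8, was at 14.3, 9.42 and 6.67 CPM in *db/m* and 3.69, 1.84 and 1.7 CPM in *db/db*-dapa mice, with a log2 fold change of -2.09 (SE 0.53, adjusted p = 0.112), by edgeR's quasi-likelihood test. The 10 MHC class II genes had a median of -1.03 (-0.85 with genes at 0 counts set to their lower bound, and -0.62 leaving out *db/m* replicate 1), 0 of them called. H2-DMb2 was at 13.9, 8.9 and 5.78 CPM in *db/m* and 4.83, 3.81 and 2.26 CPM in *db/db*-dapa mice (log2 fold change -1.40, SE 0.43, adjusted p = 0.173 by edgeR's quasi-likelihood test). Complement had 2 of 19 genes called lower and 0 higher, with a median of -0.54 (-0.92 leaving out *db/db*-dapa replicate 1 and -0.29 leaving out *db/db*-dapa replicate 3). C8a is not on this list. Cd55, which protects cells from complement, was at 13.9, 8.2 and 9.78 CPM in *db/m* and 2.41, 1.05 and 1.81 CPM in *db/db*-dapa mice, and *db/db* mice were at 0.34, 0.4 and 1.14 CPM. C4a was at 26.8, 16.1 and 25.3 CPM in *db/m* and 5.96, 4.86 and 7.92 CPM in *db/db*-dapa mice. Neither overlapped between treated mice and controls, and the log2 fold changes were -2.59 (SE 0.44, adjusted p = 0.0332) and -1.85 (SE 0.43, adjusted p = 0.0922) by edgeR's quasi-likelihood test. C4a is nearly identical to C4b, and the division of reads between them is uncertain. The call of Cd55 was lost without *db/m* replicate 1 or *db/db*-dapa replicates 2 or 3, and that of C4a without any 1 of the *db/m* or *db/db*-dapa mice or *db/db* replicate 2 (-2.86 to -2.32 and -2.05 to -1.70 over the 9 fits). With limma on either log scale C4a was not called.

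Summed markers of macrophages were at 500, 386 and 219 CPM in *db/m* and 330, 177 and 102 CPM in *db/db*-dapa mice, led by Cd74 at 400, 308 and 171 CPM in *db/m* and 259, 126 and 70.6 CPM in *db/db*-dapa mice, with overlap. Those of lymphocytes, led by Ltb, were at 6.14, 3.49 and 1.11 CPM in *db/m* and 2.41, 0.788 and 1.13 CPM in *db/db*-dapa mice. The part that such cells play in the immune lists was not tested. Respiratory chain subunits had 73 of 80 log2 fold changes below 0. Their median was -0.44 (-0.21 leaving out *db/m* replicate 3), beside -0.02 for all genes tested, with 0 genes called in either direction by edgeR's quasi-likelihood test. Of these, Ndufa4 had the smallest p, at 674, 663 and 939 CPM in *db/m* and 564, 434 and 439 CPM in *db/db*-dapa mice (log2 fold change -0.66, SE 0.26, adjusted p = 0.23 by edgeR's quasi-likelihood test). Its log2 fold change was -0.54 in untreated *db/db* against *db/m* mice and -0.12 in treated against untreated mice. The lower oxidative phosphorylation that the paper reports is from the last of these comparisons, which was not made here for the list. Cytosolic chaperones had 0 of 33 genes called and a median of -0.28 (-0.50 leaving out *db/db*-dapa replicate 1), with Dnaja4 at 80, 65.8 and 68 CPM in *db/m* and 52.5, 32.7 and 34.2 CPM in *db/db*-dapa mice (log2 fold change -0.84, SE 0.23, adjusted p = 0.134 by edgeR's quasi-likelihood test). For endoplasmic reticulum stress (Asns, log2 fold change -1.43, SE 0.44, adjusted p = 0.172) and immediate-early genes (Ier3, log2 fold change -1.06, SE 0.37, adjusted p = 0.206), the medians over 30 and 31 genes were 0.00 and -0.04, with 0 called by edgeR's quasi-likelihood test, and other scalings changed the sign of both medians. On leaving out 1 mouse they ran from -0.12 (*db/m* replicate 3) to 0.15 (*db/db*-dapa replicate 3), and from -0.24 (*db/db*-dapa replicate 1) to 0.14 (*db/db*-dapa replicate 3).

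Among tubular injury markers 2 of 31 were called higher, the fibrinogen chains Fga and Fgg, while the median was -0.30 (-0.06 leaving out *db/m* replicate 2, -0.51 leaving out *db/m* replicate 3, -0.50 leaving out *db/db*-dapa replicate 1 and -0.14 leaving out *db/db*-dapa replicate 3) and 0 were called lower. Fga was at 7.4, 7.33 and 3.56 CPM in *db/m* and 28.7, 24.9 and 25.2 CPM in *db/db*-dapa mice and Fgg at 6.46, 4.71 and 4.89 CPM in *db/m* and 18.7, 16.5 and 18.1 CPM in *db/db*-dapa mice. Every treated mouse exceeded every control for both. Their log2 fold changes were 2.08 (SE 0.44, adjusted p = 0.0734) and 1.72 (SE 0.27, adjusted p = 0.0214) by edgeR's quasi-likelihood test, with both calls lost when *db/db*-dapa replicate 2 was left out, and for Fga also without *db/db*-dapa replicate 3 or any 1 of the *db/m* mice (1.83 to 2.25 and 1.63 to 1.89 over the 9 fits). Havcr1 (KIM-1), the usual marker of proximal tubular injury, was at 0.63, 4.54 and 0.444 CPM in *db/m* and 2.27, 3.15 and 1.58 CPM in *db/db*-dapa mice with overlap. Matrix and TGF-beta targets had 0 of 30 genes called and a median of 0.28 (-0.04 leaving out *db/db*-dapa replicate 1). Lamc1, a laminin chain, was at 21.3, 21.3 and 17.3 CPM in *db/m* and 35.9, 39.4 and 38.2 CPM in *db/db*-dapa mice and passed the adjusted p but not the fold threshold (log2 fold change 0.92, SE 0.20, adjusted p = 0.0827 by edgeR's quasi-likelihood test).

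The remaining lists had 0 genes called. Their medians were 0.08 (0.18 leaving out *db/m* replicate 1 and 0.15 leaving out *db/db*-dapa replicate 3) over 17 metallothionein and iron genes, 0.35 over 12 genes of the renin-angiotensin system, 0.24 over 15 endocytic receptors and 0.56 over 5 sex chromosome genes. The members with the smallest p were Tfrc, the transferrin receptor (log2 fold change 0.67, SE 0.22, adjusted p = 0.186), Enpep, which degrades angiotensin II (log2 fold change 1.5, SE 0.41, adjusted p = 0.139), and Fcgrt, the neonatal Fc receptor (log2 fold change -0.62, SE 0.19, adjusted p = 0.178), all by edgeR's quasi-likelihood test. Over the 35 lists together, 23 of 866 genes were called higher and 10 lower, 3.81% in all, beside 1.05% of all genes tested. The lists were chosen with earlier results of these data known, so the larger share is not a result about these pathways.

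Markers of the proximal tubule summed to 32549, 34343 and 32147 CPM in *db/m* and 38998, 43507 and 45229 CPM in *db/db*-dapa mice, higher in each treated mouse. Markers of other nephron segments were present at lower levels. The loop of Henle list summed to 1646, 1460 and 2276 CPM in *db/m* and 1024, 962 and 1126 CPM in *db/db*-dapa mice, lower in each treated mouse (exact two-sided permutation test, p = 0.1, the smallest possible). Without Umod, its most abundant member, the sum was 909, 867 and 960 CPM in *db/m* and 680, 731 and 796 CPM in *db/db*-dapa mice, still lower in each treated mouse. Umod was at 737, 593 and 1316 CPM in *db/m* and 344, 231 and 330 CPM in *db/db*-dapa mice, and had a log2 fold change of -1.55 (SE 0.42, adjusted p = 0.138) by edgeR's quasi-likelihood test. Principal cell markers, led by Aqp2, summed to 417, 261 and 836 CPM in *db/m* and 285, 160 and 217 CPM in *db/db*-dapa mice, and intercalated cell markers, led by Slc26a4, to 128, 68.7 and 222 CPM in *db/m* and 83.9, 63.4 and 49.2 CPM in *db/db*-dapa mice. Both were highest in *db/m* replicate 3. The distal convoluted tubule list, led by Slc12a3, was at 535, 431 and 995 CPM in *db/m* and 570, 542 and 556 CPM in *db/db*-dapa mice.

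Podocyte markers, led by Podxl, summed to 38.1, 50.3 and 68 CPM in *db/m* and 272, 33.5 and 19.7 CPM in *db/db*-dapa mice, highest in *db/db*-dapa replicate 1, and endothelial markers, led by Ehd3, to 63.8, 66.8 and 157 CPM in *db/m* and 228, 60.7 and 50.2 CPM in *db/db*-dapa mice, while *db/db* mice were at 197, 225 and 76.4 CPM. Fibroblast, mesangial and pericyte markers, led by Acta2, were at 41.3, 30.7 and 44.9 CPM in *db/m* and 35.9, 14.8 and 7.81 CPM in *db/db*-dapa mice. Erythroid markers, led by Hba-a1, which is nearly identical to Hba-a2, were at 445, 203 and 563 CPM in *db/m* and 406, 74.3 and 44 CPM in *db/db*-dapa mice. In each of these 4 lists the groups overlapped. Of the 6 adipocyte markers, Adipoq, Plin1, Cfd and Lep were at 0 in all 6 mice, and the sum of 109, 66.1 and 79.5 CPM in *db/m* and 270, 128 and 122 CPM in *db/db*-dapa mice was nearly all Car3, a carbonic anhydrase (log2 fold change 1.13, SE 0.36, adjusted p = 0.185 by edgeR's quasi-likelihood test). In every other list each marker had counts in at least 1 of the 6 mice. The part of these transcripts in the genes called was not tested. Without *db/db*-dapa replicate 1 the number called was 264, of which 139 were among the 164, and without *db/db* replicate 3 it was 664.

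**Figure D4:**
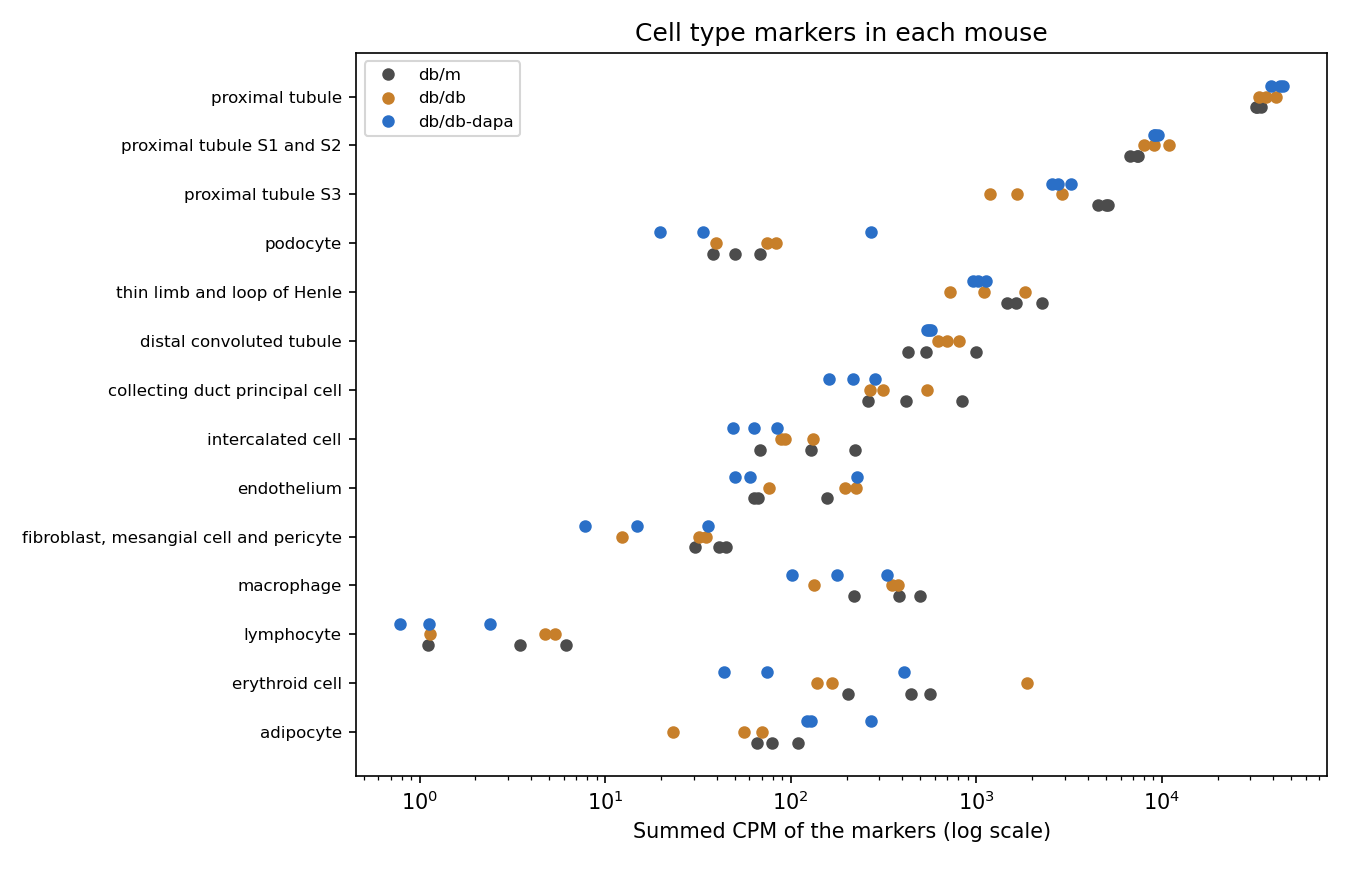
Summed CPM, on a log scale, of the markers of 14 cell types in each of the 9 mice, with a point for each mouse coloured by group. S3 markers (through Acy3) and loop of Henle markers are lower in each *db/db*-dapa than in each *db/m* mouse, and podocyte and endothelial markers are highest in *db/db*-dapa replicate 1 among the 6 mice compared.

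Called genes were spread over the genome, on each of chromosomes 1 to 19 and on X. The share called ranged from 0.499% of the genes tested on chromosome 17 to 2.3% on chromosome 18. On chromosome 8, 7 genes were called lower and 1 higher, and on chromosome 18, 7 lower and 2 higher. Others leaned the opposite way, such as chromosome 5 with 7 higher and 2 lower and chromosome 10 with 6 higher and 1 lower. Since *db/m* and *db/db* mice differ at Lepr and at whatever is linked to it, the interval within 10 Mb on each side of Lepr was counted apart, on chromosome 4 from 91717404 to 111815352. Of 109 genes tested there, 2 were called (1.83%), beside 162 of 15474 elsewhere (1.05%). C8a, 3 Mb from Lepr, is the one called lower there.

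Promoters from 250 bases before to 50 after the start were taken from RefSeq (GRCm38.p6), where 116 of the 164 called genes and 11967 of the 15583 tested had at least 1, and searched on both strands. The nuclear receptor half-site AGGTCA, which receptors such as PPAR-alpha and PXR bind as part of longer elements, was in 24 of 92 promoters of genes called higher (26.1%), 5 of 62 of genes called lower (8.06%) and 2038 of 15144 of all genes tested (13.5%). Counted by gene, 22 of 67 genes called higher (32.8%), 5 of 49 called lower (10.2%) and 1893 of 11967 tested (15.8%) held it. The E-box CACGTG, which clock activators bind, was in 5 of 92 promoters of genes called higher (5.43%), 2 of 62 of genes called lower (3.23%) and 1418 of 15144 of all genes tested (9.36%). The sterol element core TCACCCCAC was in 0 of 92 promoters of genes called higher (0%), 1 of 62 of genes called lower (1.61%) and 88 of 15144 of all genes tested (0.581%). The AP-1 site TGACTCA was in 2.17%, 1.61% and 4.05% of these promoters, the STAT site TTCCNGGAA in 2.17%, 0% and 1.26%, and the heat shock element core GAANNTTC in 5.43%, 4.84% and 6.03%. These shares are descriptions without a test, and several promoters can belong to 1 gene.

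The half-site is shown for the 6 genes named above that were called higher and hold it before their start, outside annotated exons, since it was the motif most frequent among genes called higher. The bases are those of RefSeq's GRCm38.p6, and whether a receptor binds there was not tested. Capitals mark AGGTCA or its reverse complement TGACCT, read 5′ to 3′ on the strand of the gene. By GENCODE's annotation of GRCm38 the stretches at Bhmt and Pklr lie between genes, those at Sgk1 and Aim1l within an intron of the gene itself, that at Fgg within an intron of Gm30097 and that at Ugt1a7c within introns of other Ugt1a genes. Bhmt has 2 more half-sites, 72 and 47 bases before its RefSeq start, which lie in an exon of a longer annotated transcript and are not printed.
Bhmt (chr13:93637962-93638008, minus strand): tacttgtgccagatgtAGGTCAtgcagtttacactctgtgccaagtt
Pklr (chr3:89135964-89136023, plus strand): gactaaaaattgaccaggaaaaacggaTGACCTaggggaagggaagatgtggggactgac
Fgg (chr3:83007496-83007555, plus strand): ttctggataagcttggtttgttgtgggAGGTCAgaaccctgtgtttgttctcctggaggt
Aim1l (chr4:134068244-134068303, plus strand): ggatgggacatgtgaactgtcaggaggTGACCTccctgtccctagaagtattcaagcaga
Sgk1, upstream start (chr10:21978582-21978641, plus strand): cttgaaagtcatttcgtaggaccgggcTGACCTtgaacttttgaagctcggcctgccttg
Sgk1, downstream start (chr10:21985976-21986035, plus strand): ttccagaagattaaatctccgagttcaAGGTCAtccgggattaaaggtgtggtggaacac
Ugt1a7c (chr1:88094751-88094791, plus strand): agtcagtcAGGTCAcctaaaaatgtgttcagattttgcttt

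Set beside the untreated mice, the genes that differed from *db/m* mice under treatment had varied values. The direct comparison of *db/db*-dapa with *db/db* mice gave no adjusted p below 0.854 for any of the 164 genes by edgeR's quasi-likelihood test. This was also the lowest over all genes tested, so it is not particular to the 164 and does not show that they were unchanged by the drug. Before adjustment, 32 of the 164 had a p under 0.05 in the same test, and the share over all genes is not given here. The paper reports a few genes that differed between treated and untreated mice. Both comparisons with *db/m* mice share the same controls, so their fold changes are not independent. For Cyp2d26 the log2 fold change was 1.66 in treated and 1.66 in untreated diabetic mice, and for Bdh1 -2.29 and -2.21. The treated value was nearer to 0 for Kap (-2.41 and -3.73), Odc1 (-1.0 and -1.75) and Cd55 (-2.59 and -3.86). It was farther from 0 for Slc38a3 (2.67 and 1.12) and Arntl (2.73 and 1.54). The difference between the treated and untreated values did not pass the test for any of these 7 genes.

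Each group has 3 mice, and leaving out 1 of them moved the number of calls between 14 and 664. Depth was higher in every *db/db*-dapa than in every *db/m* mouse, and genotype, drug and what follows from either differ together, so none of these can be told apart. Values of genes with near-identical copies or overlapping neighbours (Akr1b3, C4a, Cyp4b1, Hba-a1, Acot3, Slc22a29, Ugt1a7c) are uncertain. How the counts were estimated, and whether the strand of the reads was used, is not stated. RNA was measured, and proteins, splicing and single cells were not.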

How the data were processed

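RNA of sorted proximal tubular cells from 9 mice was sequenced as stranded poly(A) libraries with 101-base single reads. The authors mapped reads to mm10 with TopHat2 2.0.13, Bowtie2 2.2.3 and SAMtools 0.1.19. The deposited table holds an estimated count per gene and mouse, although it is described as FPKM (Cufflinks 2.2.1). Of its values, 90.95% are whole and most others end in 0.5, and how they were estimated is not stated. No sample column was left out.

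Groups follow the labels. Counts were rounded (ties to the even number), genes with at least 0.3 CPM in 2 or more of the 9 mice were kept, and all 9 mice were fitted together in R 4.3.3 with edgeR 4.0.16 (TMM scaling, quasi-likelihood F test, Benjamini-Hochberg adjustment over the 15583 genes). Calls required a log2 fold change beyond 1 in size and an adjusted p below 0.1. The standard error is the absolute log2 fold change over the square root of F, and printed CPM use the TMM-scaled library sizes, while the filter used plain totals. The common biological coefficient of variation was 0.259. The script was tested on simulated data.

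Named genes are the 10 highest and 10 lowest log2 fold changes among called genes with a group mean of at least 5 CPM, and the 5 smallest p in each direction. Up to 4 called genes of each of 35 pathway lists follow (or the smallest p where none was called), then the most abundant marker of each of 14 cell types and Slc34a1, Slc5a2, Slc5a1, Lepr, Pck1, Kap, Havcr1, Ddx3y and Xist. Unnamed predicted genes were passed over, and some genes that meet the rule are not reported here. Members, lists and rules were chosen with earlier results of these data known. Symbols were placed on GRCm38 with GENCODE and RefSeq. The alternatives were DESeq2 1.42.0, limma 3.58.1, other scalings, filters, rounding, thresholds and depth, a replicate block, and leaving out each mouse.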

Additional observations from a re-analysis of the deposited data

How the results depend on the processing

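None of the 164 called genes changed sign under any alternative, which was hardly possible since the groups did not overlap for any of them. For the 56 named genes that were called, 1017 of 1232 values under alternatives kept the call and 215 lost it. The number called was 463 (242 higher, 221 lower) with DESeq2, 1619 (656, 963) with limma-voom and mouse weights, 275 (154, 121) without the filter, 630 (366, 264) when only the 6 mice compared were fitted, and 57 (24, 33) at an adjusted p under 0.05. Leaving out 1 mouse gave 14 to 664 calls, 5 to 378 of them higher and 9 to 286 lower. The other settings gave 143 to 204 calls. Among them were 168 with deeper libraries thinned to the total of *db/m* replicate 3, 145 of them among the 164. With ties rounded up, a setting chosen after seeing the data, there were 156. The cause of these differences was not tested.

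Replicate numbers were not used as pairs. Deviations of *db/db*-dapa and *db/m* mice of the same number correlated at -0.0984, 0.221 and -0.173. Of the *db/db*-dapa mice, replicate 2 correlated best with its own number and replicates 1 and 3 did not. So few values cannot tell whether mice of the same number were handled together. With the replicate number as a block 166 genes were called (85 higher, 81 lower), 132 of them among the 164, and the log2 fold changes of Podxl and Ehd3 were -0.06 and -0.05.

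Sign changes were seen only among named genes that were not called. Podxl was at -0.05 with limma on log2(CPM + 1), -0.07 with limma on log2(CPM + 0.1) and -0.40 with limma-voom, and Ehd3 at -0.15, -0.20 and -0.51. Lepr and Xist had 4 counts or fewer in each of the 6 mice compared, so their fitted values are not measured fold changes. These were -0.06 for Lepr after thinning, and on leaving out 1 mouse -1.36 to 3.62 for Lepr and -0.20 to 2.42 for Xist. For other genes, leaving out 1 mouse gave -0.14 to 2.05 for Havcr1, -1.09 to 1.08 for Podxl, -0.84 to 0.07 for Slc12a3, -1.34 to 0.96 for Ehd3 and -1.12 to 0.90 for Ltb. List medians that changed sign with the scaling were those of lipid uptake, branched-chain amino acids, immediate-early genes, endoplasmic reticulum stress, glutathione conjugation, polyols and adipocytes. With 1 mouse left out the sign changed for lipid uptake, ketone bodies, organic ion transporters, immediate-early genes, endoplasmic reticulum stress, matrix, leptin and insulin signalling, polyols, podocytes, distal convoluted tubule, endothelium and adipocytes. A gene at 3 counts or fewer in a library could not be measured there.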

Other observations

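Further enzymes were called, and are named here after their values were seen. Ftcd, which passes a carbon from histidine breakdown to folate, was at 42.4, 32.8 and 42.4 CPM in *db/m* and 104, 102 and 115 CPM in *db/db*-dapa mice, and Shmt1, which exchanges carbon between serine and glycine, at 42.7, 36.6 and 43.5 CPM in *db/m* and 65.3, 82.1 and 106 CPM in *db/db*-dapa mice. Hacl1, a peroxisomal enzyme of alpha-oxidation, was at 38, 48.5 and 43.5 CPM in *db/m* and 113, 240 and 298 CPM in *db/db*-dapa mice. All 3 were higher in each treated mouse, with log2 fold changes of 1.45 (SE 0.22, adjusted p = 0.017), 1.04 (SE 0.21, adjusted p = 0.0625) and 2.32 (SE 0.39, adjusted p = 0.0332) by edgeR's quasi-likelihood test. Degs2, which makes phytoceramides, was lower, at 98.1, 66 and 89.1 CPM in *db/m* and 27.4, 17.1 and 22.4 CPM in *db/db*-dapa mice (log2 fold change -1.92, SE 0.27, adjusted p = 0.0133 by edgeR's quasi-likelihood test). The number of the 9 fits leaving out 1 mouse in which they were called was 8 for Ftcd, 4 for Shmt1, 5 for Hacl1 and 8 for Degs2.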
